A study of Mus musculus with 4 samples.

Results

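Genes of interleukin-6 family signalling, with the feedback inhibitor Socs3, were examined for the acetylated regions at and around their transcription start sites (TSSs) in regenerating and resting mouse liver. The 8 genes were Lif, Il11, Clcf1, Ebi3, Osmr, Il6ra, Tyk2 and Socs3, out of 10925 gene names with a listed TSS, of which 7089 were protein-coding. They were chosen by name with the regions of these same tables already known: the measured promoter states and widths selected them. All counts and widths of the 8 genes are therefore a description and carry no test.

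H3K27ac, an acetylated histone residue found at active promoters and enhancers, was profiled by CUT&Tag, in which an antibody brings a transposase to the mark, where it cuts and tags the DNA. The PHx group was liver from C57/BL6J mice 12 h after 70% partial hepatectomy (PHx), and the sham group was liver from C57/BL6J mice after a sham operation, with 2 libraries in each. All mice were described as wild-type, with no allele or agent given. The sham libraries carry no time label, so time after surgery and hepatectomy cannot be told apart.

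Most cytokines of the interleukin-6 family signal through the shared chain gp130, encoded by Il6st, together with other receptor chains, some of which serve several ligands. Receptor engagement activates kinases of the JAK family, which phosphorylate STAT3, and STAT3 enters the nucleus and switches on its target genes. Socs3 is among these targets, and its protein binds gp130 and the kinases and shuts the pathway down. After partial hepatectomy in mice, interleukin-6 from Kupffer cells is known to act on hepatocytes through this pathway during the priming phase of regeneration.

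Each group was deposited as 1 merged list of regions on build GRCm39, with no signal or read count. Depth is therefore unknown, the values carry no replicate error, and no test was possible. The PHx list held 10170 regions covering 197 Mb and the sham list 11602 regions covering 122 Mb, a ratio of 1.62. Marked means here that a region of the group in question overlapped the TSS ± 1 kb. A gene has a listed TSS only where a region was assigned to it in a table, so nothing is said of genes without one, Il6 and Stat3 among them. The tissue label was checked on hepatocyte markers: of 6 genes, 4 were marked in both groups (Alb, Apoa1, Ttr and Hnf4a), Cps1 in PHx only, and Serpina1a had no listed TSS.

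Of the 8 genes, 6 were marked in PHx only, against 15.4% of all protein-coding genes with a listed TSS. A further 2, Il6ra and Socs3, were marked in both groups, against 66.0% of all. None was marked in sham only, against 9.78% of all. Since the genes were picked on this same comparison, nothing is read from these shares.

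Promoter sequences are shown for the genes whose promoters held a match to a searched motif, because the pathway ends in STAT factors and because AP-1 factors are induced early in regeneration. The RefSeq promoter table, on build GRCm38.p6, holds 250 bases before and 50 bases from the start for 7 of the 8 genes; its coordinates are of another build than the regions and were not converted. The motifs searched on both strands were TTCNNNGAA for STAT factors, with the stricter TTCCNGGAA inside it, TGANTCA for AP-1 and TTGCNNAA for C/EBP. Capitals mark the matches, and each sequence reads 5′ to 3′ along its gene.
Socs3: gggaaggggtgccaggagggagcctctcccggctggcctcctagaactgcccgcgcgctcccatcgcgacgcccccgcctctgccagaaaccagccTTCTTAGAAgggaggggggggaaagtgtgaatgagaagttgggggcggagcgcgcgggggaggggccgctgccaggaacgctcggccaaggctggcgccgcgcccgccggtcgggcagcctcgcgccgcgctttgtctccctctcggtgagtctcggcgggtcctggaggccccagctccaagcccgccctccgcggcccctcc
Lif: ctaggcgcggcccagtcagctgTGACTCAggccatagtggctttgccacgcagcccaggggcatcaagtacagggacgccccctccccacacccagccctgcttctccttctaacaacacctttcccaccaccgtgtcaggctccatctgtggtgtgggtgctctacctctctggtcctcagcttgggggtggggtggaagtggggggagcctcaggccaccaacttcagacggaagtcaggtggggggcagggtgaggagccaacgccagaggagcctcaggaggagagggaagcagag
Il11: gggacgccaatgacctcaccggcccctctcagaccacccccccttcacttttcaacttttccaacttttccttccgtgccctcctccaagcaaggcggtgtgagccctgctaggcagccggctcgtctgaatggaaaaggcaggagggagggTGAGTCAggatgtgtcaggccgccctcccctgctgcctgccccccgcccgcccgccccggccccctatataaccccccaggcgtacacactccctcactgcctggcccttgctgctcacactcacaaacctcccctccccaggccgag
Osmr: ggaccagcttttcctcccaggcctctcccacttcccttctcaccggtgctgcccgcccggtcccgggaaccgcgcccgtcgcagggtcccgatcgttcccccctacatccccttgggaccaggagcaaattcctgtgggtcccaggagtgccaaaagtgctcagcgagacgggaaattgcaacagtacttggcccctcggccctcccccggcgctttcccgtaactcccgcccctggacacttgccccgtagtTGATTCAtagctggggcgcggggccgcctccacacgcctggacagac
The Socs3 promoter lies at chr11:117969317-117969616 on the minus strand, the Lif promoter at chr11:4257318-4257617 on the plus strand, the Il11 promoter at chr7:4778092-4778391 on the minus strand and the Osmr promoter at chr15:6874264-6874563 on the minus strand. With the start site as base 1 and no base 0, the STAT match of Socs3, TTCTTAGAA, lay at bases -154 to -146. The AP-1 matches were TGACTCA at bases -228 to -222 of Lif, TGAGTCA at -98 to -92 of Il11 and TGATTCA at 4 to 10 of Osmr. The Il6ra, Ebi3 and Tyk2 promoters held none of the motifs searched, nor did the other RefSeq start of Il11, at chr7:4782808-4783107 on the minus strand.

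These matches say only that the letters are in the windows. Over 32851 promoters of the table, TTCNNNGAA occurred in 8.3%, TTCCNGGAA in 1.15%, TGANTCA in 7.81% and TTGCNNAA in 10.8%. The Socs3 promoter was also rich in CpG dinucleotides, with 31 in 300 bases and a GC content of 73.3%, and 10.6% of promoters held as many CpGs or more. Il6ra had 25, Tyk2 23, Osmr 22, Lif 7 and Ebi3 2, and Il11 had 13 at the start shown and 1 at its other start, against a median of 7 over the table. Both CpG-dense and CpG-poor promoters were thus among the genes marked in PHx only.

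The 4 ligand genes with a listed TSS, Lif, Il11, Clcf1 and Ebi3, were all marked in PHx and not in sham. The share over all protein-coding genes with a listed TSS was 15.4%. As with Osmr and Tyk2, no sham region was assigned to these 4 genes. Their TSSs were thus listed through PHx regions alone, and nothing is read from their shared state. Their PHx promoter regions were of like width, between 13745 and 16131 bp, close to the median of 13403 bp over the 1091 protein-coding genes marked in PHx only (quartiles 9714 and 21514 bp). They differed in how much acetylated sequence lay beside them in sham liver. Other ligand genes of the family, among them Il6, Il27, Osm, Cntf, Ctf1, Ctf2 and Il31, had no listed TSS.

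Lif encodes leukaemia inhibitory factor, which signals through Lifr and gp130. Its PHx region, chr11:4205485-4219589, was 14105 bp wide and ran from 2083 bp upstream of the TSS at 4207568 to 12021 bp downstream, over most of the 14947 bp gene. No sham region overlapped it, and the nearest one began 35257 bp from the TSS. That neighbour carries the name of Castor1, a sensor protein of amino acid signalling, and its width was 38694 bp in PHx and 38200 bp in sham, a ratio of 1.01. A sham region of 3273 bp assigned to Ccdc157, farther upstream, had no PHx overlap, so the locus held a region listed in PHx only at Lif and one listed in sham only.

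Clcf1 encodes cardiotrophin-like cytokine factor 1, which signals through Cntfr, Lifr and gp130. Its PHx region, chr19:4260386-4274130, was 13745 bp wide and covered the TSS at 4264292 from 3906 bp upstream to 9838 bp downstream. It overlapped no sham region and filled most of the stretch between sham regions ending 11056 bp upstream of the TSS and beginning 11670 bp downstream. The locus was densely acetylated in both groups, with 7 PHx and 8 sham regions within 100 kb covering 151919 bp in PHx and 116644 bp in sham. No RefSeq promoter was matched for Clcf1.

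Il11 encodes interleukin-11, which binds Il11ra1 and gp130. Its PHx region, chr7:4784062-4800192, was 16131 bp wide, of which 14810 bp lay upstream of the listed TSS at 4785382 and 1320 bp inside the gene. It also covered the TSS of Rpl28, a ribosomal protein gene 10582 bp away, and 65.0% of it was acetylated in sham as a region of 10878 bp assigned to Rpl28. That sham region ended 4326 bp short of the Il11 TSS. The part of the PHx region at Il11 not listed in sham was thus the 5646 bp between the Rpl28 region and the end inside Il11. The listed start is that of the transcript XM_036152699.1 with a gene length of 10011 bp, whereas the RefSeq promoter with the AP-1 match lies 5769 bp from the gene's end, a difference of 4242 bp. The other RefSeq start, without a match, differs by 474 bp and is the nearer of the pair in length. If the gene ends at the same base in both annotations, the start with the match is outside the PHx region, which reached 1320 bp into the gene.

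Ebi3 encodes the subunit that pairs with Il27 p28 to form the cytokine interleukin-27. Its PHx region, chr17:56257596-56271358, was 13763 bp wide and reached from 2027 bp upstream of the TSS at 56259623 to 11735 bp downstream, past the end of the 4400 bp gene. A sham region of 9446 bp, assigned to the predicted gene Gm16712, began 3202 bp downstream of the TSS and made up 62.0% of the PHx region. Ebi3 and Il11 had the sham regions nearest to the TSS among the 6 genes marked in PHx only, at 3202 and 4326 bp. Both stayed in PHx only with a window of 3 kb. Of the 6 genes marked in PHx only, 4 had a PHx region without any sham overlap, against 69.4% of protein-coding genes marked in PHx only.

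Receptor genes differed from each other in state. Osmr was marked in PHx only and Il6ra in both groups, as were Il6st and Lifr, while Il27ra, a chain of the interleukin-27 receptor, was marked in sham only. Il31ra, which pairs with Osmr for interleukin-31, had a TSS without a region in either group, and Il11ra1, Il11ra2 and Cntfr had no listed TSS.

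Osmr encodes the oncostatin M receptor chain that pairs with gp130. Its PHx region, chr15:6902469-6909853, was 7385 bp wide and the narrowest of the 8 genes, and 90.3% of protein-coding genes marked in PHx only had one at least as wide. It reached 5698 bp upstream of the TSS at 6904155 and 1686 bp into a gene of 61107 bp. The nearest sham region lay 158288 bp away, and within 100 kb the covered length was 7385 bp in PHx and 0 bp in sham. Osmr was the only one of the 8 loci with no sham region within 100 kb, and 13.2% of protein-coding genes marked in PHx only had a sham region that far or farther. The RefSeq start of Osmr gave a gene 361 bp shorter than the listed one, a difference smaller than the reach of the PHx region into the gene.

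**Figure D1:**
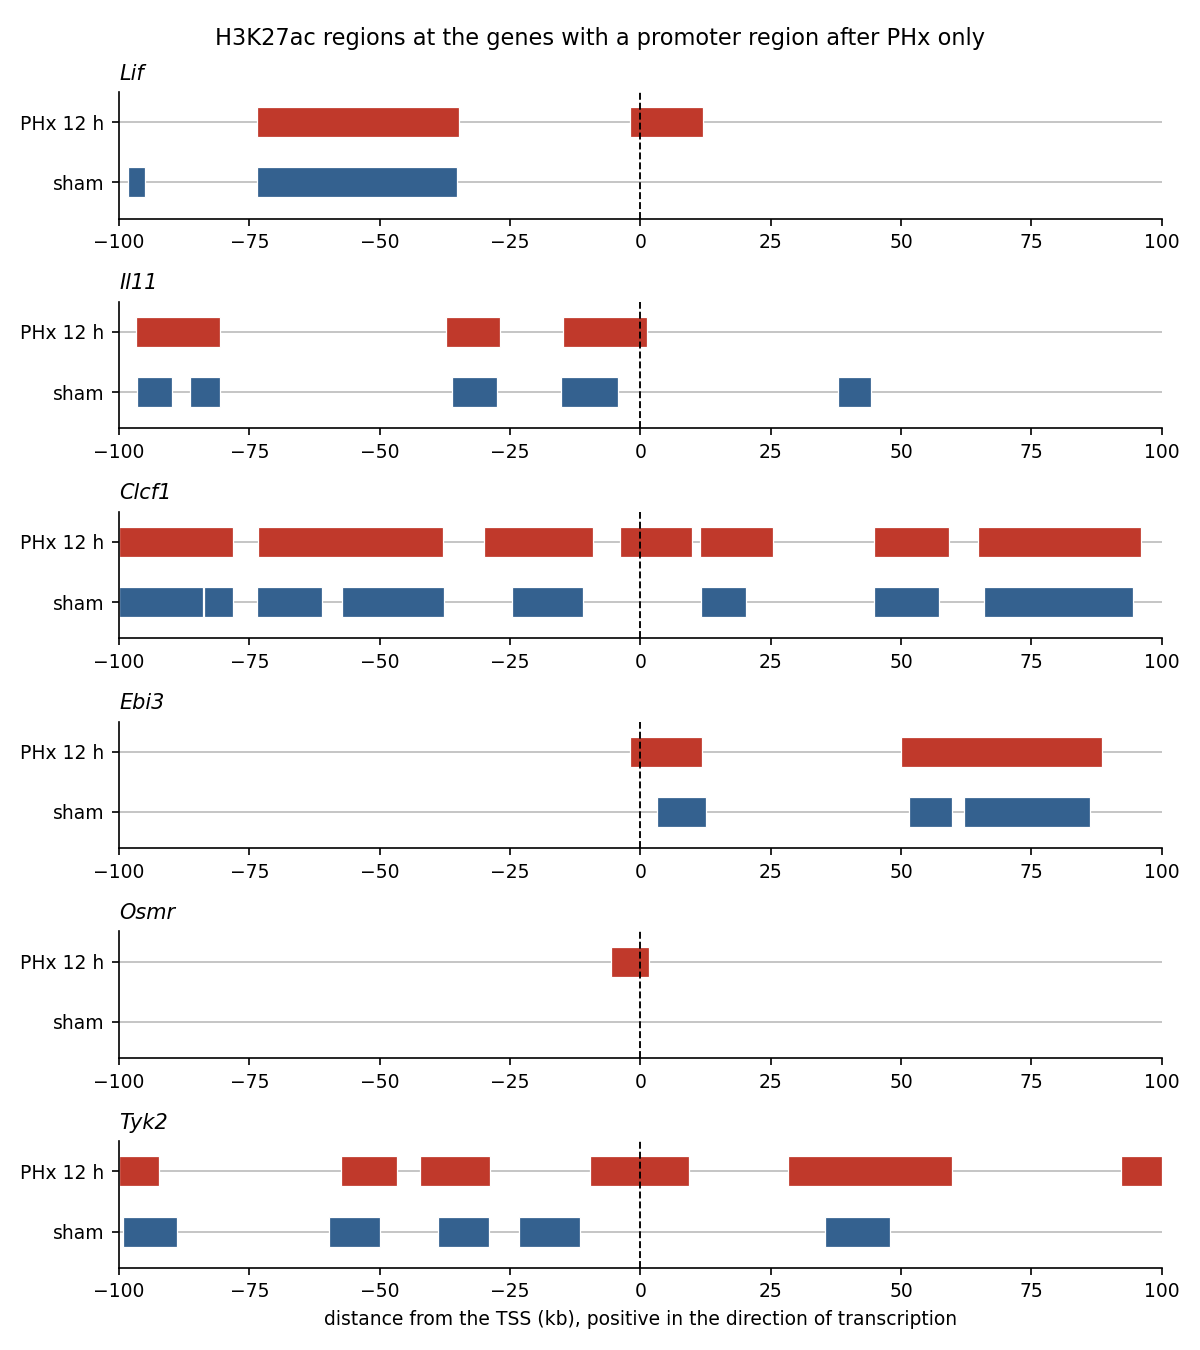
Regions of PHx 12 h liver (red, upper row of each panel) and sham liver (blue, lower row) within 100 kb of the TSS of the 6 genes marked in PHx only, drawn to scale, with the distance from the TSS in kb on the x axis. A PHx region crosses the dashed TSS line in each panel and no sham region does. The sham regions nearest to Ebi3 and Il11 begin 3202 and 4326 bp away, whereas the Osmr panel holds no sham region.

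Il6ra encodes the chain that binds interleukin-6 itself. Its PHx region, chr3:89789572-89822889, was 33318 bp wide, and the sham region at the promoter, chr3:89812238-89822893, was 10656 bp wide, a ratio of 3.13. Upstream of the TSS at 89820503 the regions reached 2386 bp in PHx and 2390 bp in sham. Inside the gene they reached 30931 bp in PHx and 8265 bp in sham. The difference in width thus lay within the gene body.

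That stretch of the gene body was already acetylated in sham liver in pieces. A sham region of 9427 bp over intron 1 began 2270 bp past the promoter region, and a further one of 9565 bp, annotated to exon 2, followed after 1135 bp. The 3 sham regions together covered 29648 bp, and 89.0% of the PHx region overlapped them. The PHx region was 1.12 times as wide as their sum, and 76.6% of protein-coding genes marked in both groups had a ratio at least as large. Measured over the span of the sham regions, gaps included, the ratio was 1.01, so at Il6ra the PHx list held in 1 piece almost the same stretch that the sham list held in 3.

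Tyk2 encodes a JAK family kinase that binds gp130 and other cytokine receptors. Its PHx region, chr9:21033178-21052138, was 18961 bp wide, the widest of the 6 genes marked in PHx only, and lay almost evenly about the TSS at 21042451, with 9687 bp upstream and 9273 bp downstream. No sham region overlapped it. The nearest one, at chr9:21053950-21065653, began 11499 bp upstream of the TSS and carries the name of Cdc37, a co-chaperone of kinases. That Cdc37 region of 11704 bp had itself no PHx overlap. The Tyk2 locus therefore held neighbouring regions of opposite kind, 1 listed in PHx only and 1 in sham only.

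Socs3 had the widest promoter region of the 8 genes. The PHx region, chr11:117812487-117908341, was 95855 bp wide, against 15412 bp in sham at chr11:117847754-117863165. The ratio was 6.22, and 4.34% of protein-coding genes marked in both groups had one at least as large. Around the TSS at 117860192 the region reached 48149 bp upstream and 47705 bp downstream in PHx, and 2973 bp upstream and 12438 bp downstream in sham. The gene is 3288 bp long, so both regions ran past its end and most of the PHx region lay outside it. In the authors' annotation the PHx region carries the name of Mir6933, a microRNA gene, and no PHx region carries the name Socs3, whereas 3 sham regions do.

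The PHx region of Socs3 overlapped 5 sham regions. In the direction of transcription these were a region of 6746 bp assigned to Mir6933, 1 of 11797 bp at the promoter of Pgs1, a lipid synthesis enzyme of mitochondria, the promoter region of Socs3, and distal regions of 7730 and 11292 bp assigned to Socs3. The distal regions lay 16382 to 24111 bp and 27856 to 39147 bp downstream of the TSS. The gaps between the 5 regions, in the same order, were 240, 12646, 3943 and 3744 bp, and all were inside the PHx region.

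Joining thus made up a large share of the width at Socs3, though not all of it. The 5 sham regions summed to 52977 bp, which gave a ratio of 1.81, and 55.3% of the PHx region overlapped a sham region. Their span was 73550 bp, which gave a ratio of 1.30. Beyond that span the PHx region reached a further 13747 bp on the upstream side and 8558 bp on the downstream side. Of protein-coding genes marked in both groups, 25.3% had a ratio over the sum at least as large and 47.4% had a ratio over the span at least as large. Socs3 was thus near the upper quartile of 1.82 over the summed sham regions and near the middle only over the span, in which the gaps count as well.

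Il6ra and Socs3 were the 2 of 8 genes whose PHx promoter region overlapped 2 or more sham regions, against 25.5% of protein-coding genes with a PHx promoter region. Both were also over 3 times as wide in PHx as in sham, with Il6ra just past that limit, against 20.7% of genes marked in both groups. The medians over the 4682 genes marked in both groups were 1.72 for the width ratio (quartiles 1.24 and 2.71), 1.40 for the ratio over the sum and 1.27 for that over the span.

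**Figure D2:**
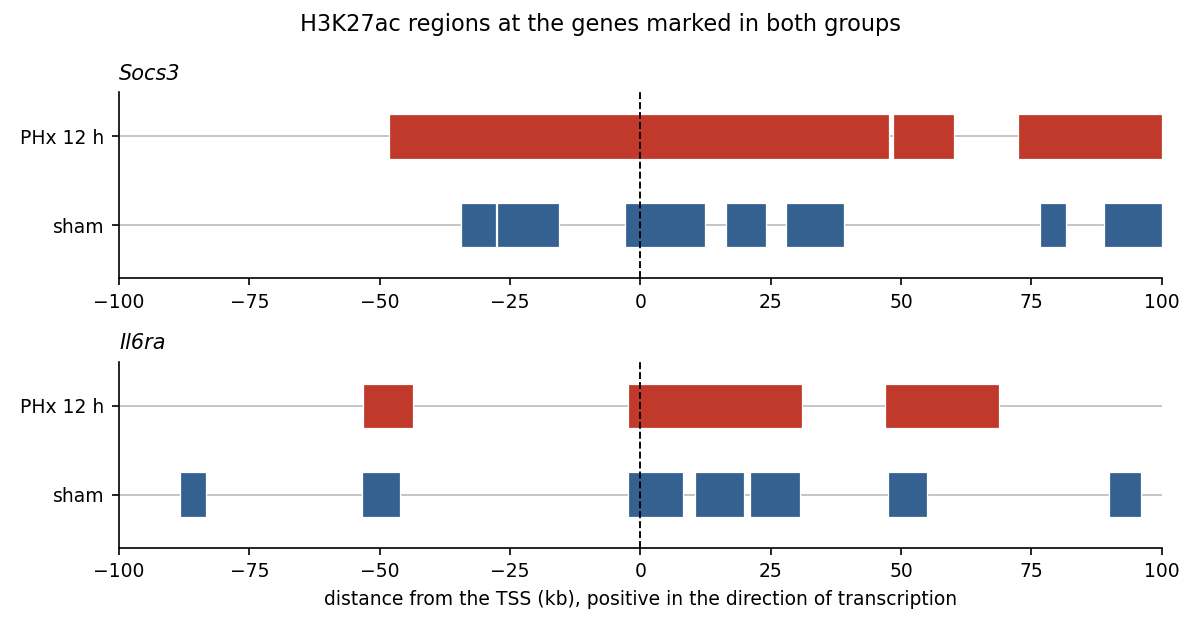
Regions of PHx 12 h liver (red, upper row) and sham liver (blue, lower row) within 100 kb of the TSS of Socs3 and Il6ra, drawn to scale, with the distance from the TSS in kb on the x axis. The PHx region at Socs3 covers the 5 sham regions nearest the TSS and runs beyond them on both sides, whereas the PHx region at Il6ra ends within 269 bp of the outermost of the 3 sham regions it covers.

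The listed regions are merged from peaks of both libraries of a group, and each row gives the peaks it was made from, so joining could be set against single libraries. In the span of the Socs3 region, PHx library 1 had 1 peak and PHx library 2 had 3, against 5 and 6 peaks in sham libraries 1 and 2. In the span of the Il6ra region the PHx libraries had 2 and 1 peaks, against 3 and 3 in the sham libraries. At both genes each PHx library had fewer peaks than each sham library. Both are shown because the PHx region overlapped 2 or more sham regions, and each of those held a peak of both sham libraries. The higher sham counts thus follow in part from that choice, and nothing is read from them. The widths of single peaks are not listed. At Socs3 the unbroken region rested on the single peak of PHx library 1, since library 2 was broken into 3. Among all 1470 protein-coding genes with a PHx promoter region over 2 or more sham regions, both PHx libraries had fewer peaks than both sham libraries in 59.0%. That share rests on the same choice of genes. PHx library 1 alone had a single peak in 46.3% of these genes, library 2 alone in 9.32% and both in 35.7%. The PHx libraries therefore differed in how far peaks ran together, and the cause was not tested.

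**Figure D3:**
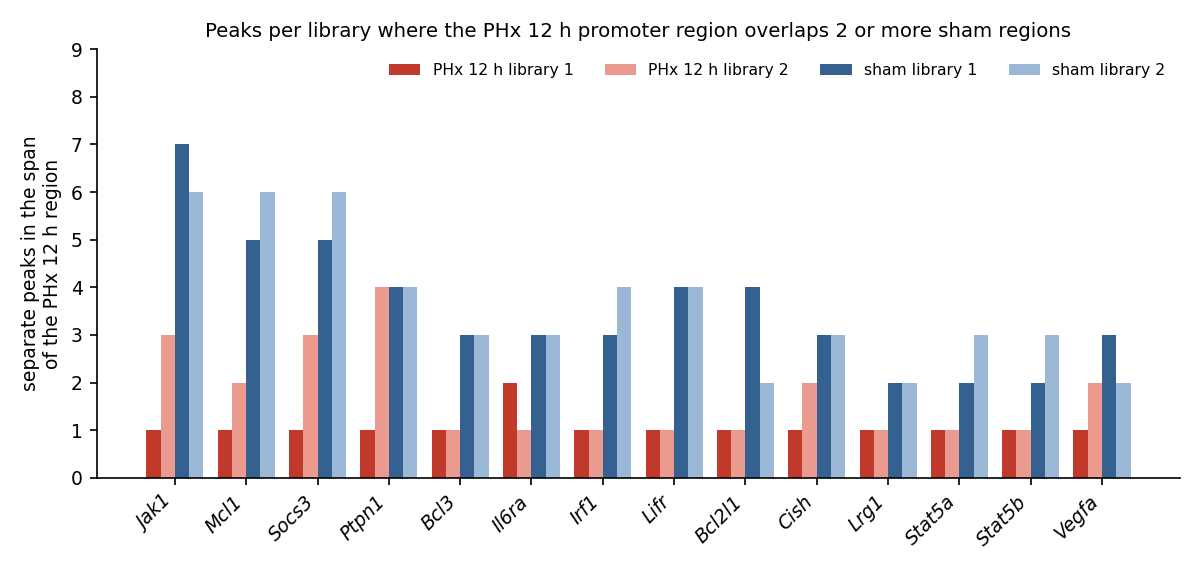
Number of separate peaks of each library (bars, y axis from 0) in the span of the PHx promoter region, for the 14 pathway genes whose PHx region overlaps 2 or more sham regions. PHx 12 h libraries are red and sham libraries blue. PHx library 1 has a single peak at 13 of the 14 genes and PHx library 2 at 8, and both PHx libraries lie below both sham libraries at 12. Over all 1470 such protein-coding genes, both PHx libraries lie below both sham libraries in 59.0%. Choosing genes by their number of sham regions favours higher sham counts in both sets. A single peak is found in library 1 alone in 46.3%, in library 2 alone in 9.32% and in both in 35.7%. Stat5a and Stat5b share 1 region and are counted as separate genes.

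The 6 genes marked in PHx only had 1 peak in each PHx library. A sham peak called in 1 library alone would not appear in the merged list, and peak numbers that no listed region uses show where such peaks may lie. In the stretch between the sham regions on either side of the TSS, the unused numbers of sham libraries 1 and 2 were 3 and 1 at Lif, 1 and 0 at Il11, 1 and 0 at Clcf1, 0 and 0 at Ebi3, 1 and 1 at Osmr and 2 and 1 at Tyk2. At least 1 sham library had an unused number at 5 of the 6 genes, against 89.8% of protein-coding genes marked in PHx only. Both had one at 3, Lif, Osmr and Tyk2, against 44.6%. The stretches were 368571 bp at Lif, 42182 bp at Il11, 22725 bp at Clcf1, 410913 bp at Osmr and 46864 bp at Tyk2, so an unused peak need not lie at the promoter. Ebi3 was the only one of the 6 with no unused sham number, over a stretch of 2296868 bp. Unused numbers of the PHx libraries were not counted, so promoters and regions listed in sham only, such as that of Cdc37, carry no such check.

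Over the whole windows of 100 kb each side, all 8 genes had more PHx than sham sequence, against 88.1% of protein-coding genes. The covered length was 135113 bp in PHx and 68977 bp in sham at Socs3, a ratio of 1.96, and 90138 bp in PHx and 53856 bp in sham at Tyk2, a ratio of 1.67. The other ratios were 1.30 at Clcf1, 1.27 at Lif, 1.25 at Ebi3, 1.17 at Il6ra and 1.11 at Il11, and none could be formed at Osmr. Their median over 7 loci was 1.27, below the median of 1.48 over 6807 protein-coding genes with sham sequence in the window. Socs3 and Tyk2 lay above that median and the other 5 loci with a ratio below it.

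Within these windows 27 PHx and 37 sham regions were listed. Of the PHx regions 25 were annotated to a promoter, 1 to an exon and 1 to a 3′ UTR, and none was distal. Of the sham regions 29 were annotated to a promoter, 3 to a 3′ UTR, 2 to an exon, 2 to distal intergenic sequence and 1 to an intron. The 2 distal sham regions were those downstream of Socs3, and both lay inside the PHx region there. Besides those at Osmr, Lif, Clcf1 and Tyk2, the PHx regions without sham overlap were one of 11642 bp assigned to Tha1, near Socs3, and one of 14164 bp assigned to Icam4, near Tyk2. These were 6 of 27, against 22.5% of all PHx regions. Sham regions without PHx overlap were 5 of 37, against 14.0% of all sham regions, and were assigned to Gm8969 and Gm19710 near Il6ra, Ccdc157 near Lif, Gm24537 near Il11 and Cdc37 near Tyk2. A total of 11 neighbouring regions at 5 loci matched 1 to 1 between the groups, and all 11 were wider in PHx, by a median of 1.31, from 1.01 at Castor1 to 2.96 at She. Over the whole series 6164 regions matched 1 to 1, of which 89.0% were wider in PHx, with a median ratio of 1.49.

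The rest of the pathway was described from 6 lists with 84 genes, of which 76 were not among the 8. Of these 76 genes 42 had a listed TSS. Both groups marked 36 of them, PHx alone marked 1, sham alone marked 3, and 2 were unmarked. The median width ratio of the 36 was 1.72, the same as over all genes to the digits given, with 33 wider and 3 narrower in PHx, against 91.4% wider over all. With the 8 genes, which were set apart for their state, taken out, the state of the others is no comparison with them.

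Among the other receptor chains, Lifr, shared by several ligands of the family, had a region of 48954 bp in PHx and 5011 bp in sham, a ratio of 9.77. It covered 3 sham regions, and over their sum the ratio was 1.26, so Lifr resembled Il6ra in that most of its PHx region was already listed in sham in pieces. Il6st, which encodes gp130, had 13602 bp in PHx and 12168 bp in sham, a ratio of 1.12. The gene for the shared chain thus had the smallest ratio of the 3 receptor genes marked in both groups. The sham-only region of Il27ra was 8336 bp wide, and the nearest PHx region lay 19453 bp from its TSS.

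The kinases differed among themselves. Jak1, the main kinase of gp130, had 112577 bp in PHx and 21045 bp in sham, a ratio of 5.35, and covered 5 sham regions, over whose sum the ratio was 1.58. Jak3, which serves lymphoid cytokine receptors, had 23241 bp in PHx and 14039 bp in sham. Stat6, which serves interleukin-4 signalling, had 9614 bp in PHx and 9630 bp in sham. Stat5a and Stat5b shared a region of 24377 bp in PHx and one of 24084 bp in sham, so the promoter regions of these STAT genes were of like width in both groups. The PHx region of Stat5a and Stat5b covered 2 sham regions, however, and over their sum the ratio was 0.80. Jak2, Stat2, Stat3 and Stat4 had no listed TSS.

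Of the inhibitors, Socs7 had 10592 bp in PHx and 6055 bp in sham, and Cish, a feedback inhibitor of STAT5, had 30496 bp in PHx and 18902 bp in sham. Their ratios, 1.75 and 1.61, were near the median of all genes, while that of Socs3 was 6.22. The largest ratio of the pathway, 20.9, was at Ptpn1, a phosphatase that acts on JAK kinases, with 72561 bp in PHx and 3479 bp in sham. Over the 4 sham regions it covered, the Ptpn1 ratio was 1.68. Ptpn2, a related phosphatase, had 32598 bp in PHx and 7493 bp in sham, a ratio of 4.35 with a single sham region. Gab1, an adaptor of growth factor and cytokine receptors, had 19731 bp in PHx and 6862 bp in sham, and Ptpn11, which links gp130 to the MAP kinase pathway, had 16105 bp in PHx and 14122 bp in sham. Pias3, an inhibitor of STAT3, and Adam17, which sheds the interleukin-6 receptor, were marked in sham only, with regions of 7317 and 3890 bp, and Pias1 was marked in neither group. The remaining 5 SOCS genes, Socs1, Socs2, Socs4, Socs5 and Socs6, had no listed TSS.

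Of 30 known STAT3 target genes 19 had a listed TSS, 18 of them marked in both groups. Of these, 16 were wider and 2 narrower in PHx, with a median ratio of 1.99, and 1.48 over the sum of the sham regions covered. Over all protein-coding genes marked in both groups the share wider in PHx was the 91.4% given above, with medians of 1.72 and 1.40. The survival genes Bcl2l1 and Mcl1 had 69537 and 75920 bp in PHx, against 11146 and 22981 bp in sham. Irf1, an interferon-regulated transcription factor, had 61232 bp in PHx and 17364 bp in sham, and Bcl3, a partner of NF-kB, had 44777 bp in PHx and 13458 bp in sham. Pim1, a survival kinase, went the other way with 12428 bp in PHx and 15326 bp in sham, as did the cell cycle gene Ccnd1 with a ratio of 0.93. Il1rn, the interleukin-1 receptor antagonist, was the only listed target marked in PHx only, with a region of 7033 bp and the nearest sham region 454644 bp away; sham libraries 1 and 2 had 1 and 5 unused peak numbers in that stretch.

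**Figure D4:**
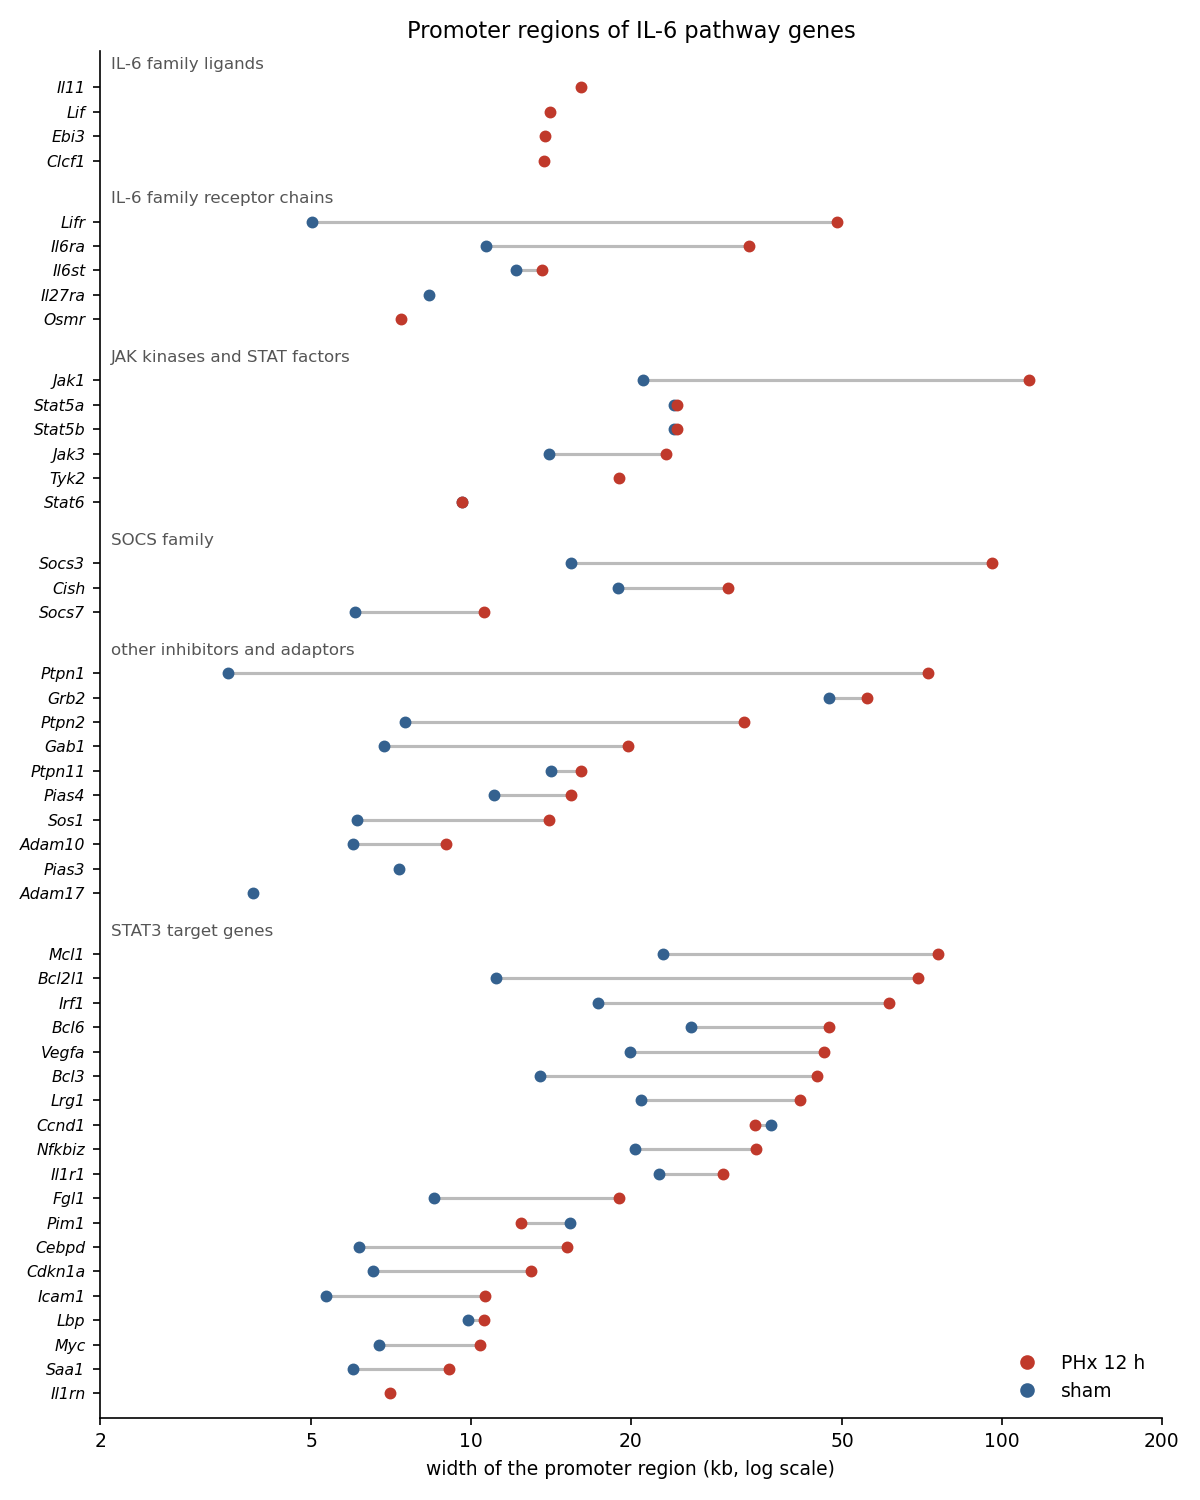
Width in kb, on a log axis, of the promoter region of 47 of the 48 pathway genes marked in at least 1 group, in PHx 12 h liver (red) and sham liver (blue), grouped by role. A line joins the points of a gene marked in both. The 4 ligand genes and Osmr, Tyk2 and Il1rn have a red point alone, Il27ra, Pias3 and Adam17 a blue point alone, and Pim1 and Ccnd1 are visibly narrower in PHx.

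Several of the widest pathway regions, like those of Socs3 and Il6ra, had a large ratio over the sham promoter region and covered further sham regions. The sum includes the sham promoter region, so the ratio over the sum had to be smaller at these genes, and only its size is informative. Bcl2l1 had 6.24 and 1.36, Mcl1 3.30 and 1.41, Irf1 3.53 and 1.09, and Bcl3 3.33 and 1.52. At 1.81 over the sum, Socs3 was the highest of the pathway genes with 2 or more sham regions covered, ahead of Ptpn1 at 1.68 and Jak1 at 1.58. Some pathway genes with a single sham region were higher, with 4.35 at Ptpn2 and 2.88 at Gab1. Over the span of the sham regions, Ptpn1 at 1.49 was above Socs3 at 1.30. No replicate error is at hand to say whether any of these genes differ.

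**Figure D5:**
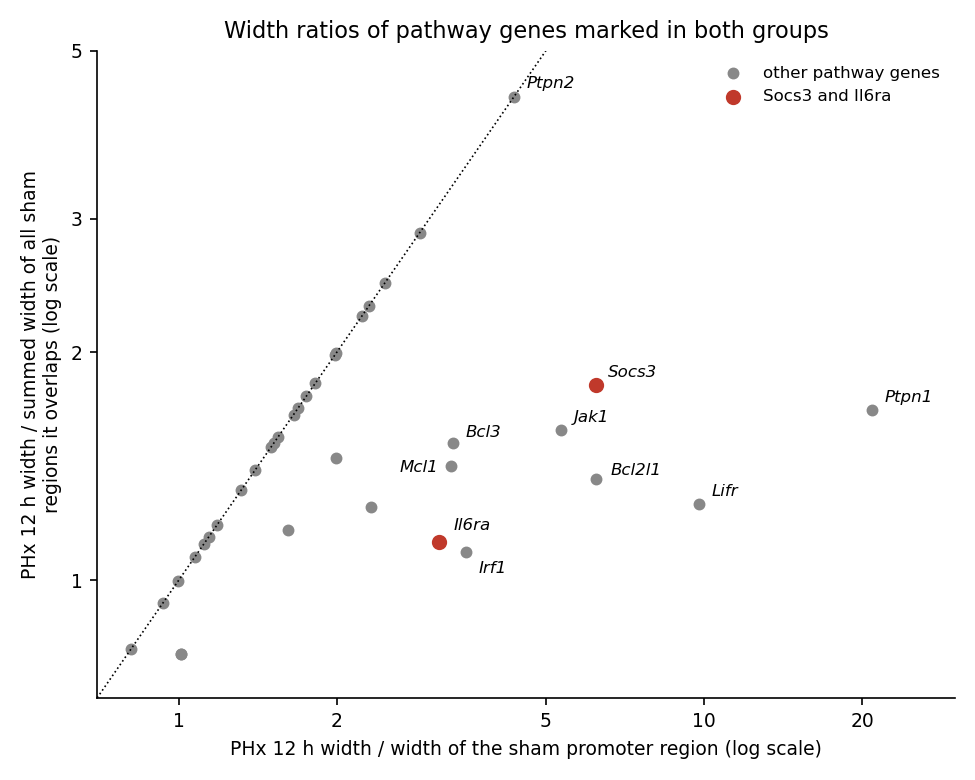
PHx 12 h width over the width of the sham promoter region (x axis) against PHx width over the summed width of all sham regions it overlaps (y axis), both as log-scaled ratios, for 37 of the 38 pathway genes marked in both groups. Genes on the dotted line of equality overlap a single sham region, and genes that overlap more lie below it by construction. Socs3 and Il6ra (red) lie below it, at 6.22 and 1.81 and at 3.13 and 1.12.

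Lif, Il11 and Osmr can also be expressed by cells other than hepatocytes, and in bulk liver more cells of a type and more acetylation per cell cannot be told apart. Of 7 endothelial markers 5 had a listed TSS, and none of these was marked in sham. Marked in PHx only were 4 of them, against 15.4% of all protein-coding genes with a listed TSS. These were Pecam1, Cdh5, Lyve1 and Erg, with PHx regions of 21591, 14699, 38368 and 31257 bp. Whether their TSSs were listed through PHx regions alone was not checked, so nothing is read from that share. Lyve1 had a sham region 1298 bp from its TSS, and with a window of 3 kb it was marked in both groups, which left 3 endothelial markers in PHx only. Stab2, also endothelial, had no region in either group, and Kdr and Tek had no listed TSS. Of 7 Kupffer cell and macrophage markers 3 had a listed TSS, with Csf1r in PHx only and Cd68 and C1qa in both groups. A sham region lay 1331 bp from the Csf1r TSS, so that Csf1r too was in both groups with a window of 3 kb. Of 6 stellate cell markers Colec11 was in PHx only and Ecm1 in both. None of 6 neutrophil and lymphocyte markers had a listed TSS. Pecam1, Cdh5 and Erg thus shared the PHx-only state of the ligands and Osmr with either window. The stellate cell marker Colec11 and the hepatocyte marker Cps1 did so too. Around these TSSs, sham libraries 1 and 2 had 2 and 2 unused peak numbers at Pecam1, 2 and 0 at Cdh5 and 3 and 4 at Erg. They had 2 and 1 at Colec11 and 2 and 2 at Cps1. The part of any cell type in the result was not tested.

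Genes with promoter regions most like those of Socs3 and Il6ra were found by the distance between log2 widths over the 2 groups. Nearest to Socs3 among 4680 protein-coding genes were Eif3k, with 101369 bp in PHx and 15359 bp in sham, Zfhx3, with 90295 bp in PHx and 15765 bp in sham, and Irs2, with 96764 bp in PHx and 13831 bp in sham. Their distances were 0.081, 0.092 and 0.16 log2 units. Nearest to Il6ra among 4681 genes were Zc3h4, with 33121 bp in PHx and 10651 bp in sham, Abcd3, with 33543 bp in PHx and 10509 bp in sham, and Acy1, with 32610 bp in PHx and 10985 bp in sham, at distances of 0.0086, 0.022 and 0.054. The likeness rests on a single width per group, and Osmr, marked in 1 group, has no such distance.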

How the data were processed

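CUT&Tag reads were 150 bp and paired-end, per the labels' protocols. Bowtie2, SEACR, ChIPseeker and DiffBind are the tools that the submitters' processing notes list, without versions or roles, beside the builds GRCm39 and mm39. Caller settings: not given in the sources used here. The authors deposited 1 table of regions per group, which holds, per the file headers, start, end and width in bp, annotation, assigned gene and the contributing peaks of each library, with no signal or count. The labels do not say whether the 2 libraries of a group came from separate animals, so they may be technical replicates.

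The members and gene lists were chosen with earlier results of these data known, and counts of peaks per library and the 3 kb window for cell type markers were added after the tables were seen. The most upstream start listed for a gene in either table was its TSS, and overlap meant at least 1 shared bp. The named genes are the 8 members, from each list those marked in 1 group only with the 3 largest and the smallest width ratio, genes whose TSS shared a member's region, and the nearest genes by width. Ccnd1, Mcl1, Stat5a, Stat5b and the neighbours of a member fall outside this rule and were named after their values were seen. Values of some list genes are counted in the totals and not reported or plotted here by name. Biotypes and promoters came from RefSeq tables of GRCm38.p6, where 264 gene names had no match. Peak numbers ran in genomic order in each library, and numbers in no listed region were called unused, which can also happen where rows were not used here. Listed regions held 87.6% and 78.8% of the peak numbers of PHx libraries 1 and 2, and 73.3% and 71.4% of those of sham libraries 1 and 2. Computation used Python 3.11.15, pandas 2.3.3 and numpy 2.4.6, and was checked on simulated regions.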

Additional observations from a re-analysis of the deposited data

How the results depend on the processing

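No paired analysis was possible because the tables give single libraries only as peak numbers, without position, width or signal, and leaving out each replicate could not be run for the same reason. The 6 genes marked in PHx only and the 2 marked in both were the same genes with the TSS base alone. They were also the same with a window of 3 kb each side. The most downstream listed TSS and regions of at least 5000 bp only gave the same genes too, but could not have changed a promoter state. Each of these genes had only 1 listed TSS, and all their promoter regions were wider than 5000 bp. By the authors' gene assignment 1 gene, Il6ra, was in both, since the PHx region of Socs3 carries another gene's name. Counting a PHx-only gene only where neither sham library had an unused peak number left 1, Ebi3. The Socs3 width ratio of 6.22 became 1.81 over the summed sham regions, 1.30 over their span, 7.02 with regions 3 kb or less apart joined and 3.19 after division by each group's median promoter width. The Il6ra ratio of 3.13 became 1.12, 1.01, 1.01 and 1.60 in the same order. With regions 3 kb or less apart joined, 1 gene, Socs3, still covered 2 or more sham regions. Clcf1, whose PHx region overlapped no sham region before, then overlapped 1. The median ratio of covered length, 1.27 within 100 kb, was 1.68 within 50 kb, 1.35 within 200 kb and 1.30 with regions of at least 5000 bp. Depth is unknown, so absence of the mark from a group and a level under the caller's threshold cannot be told apart. Widths follow the caller's joining of peaks and carry no error.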
